A study of Mus musculus with 2 samples.

Results

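The replication fork checkpoint and DNA repair genes are 36 mouse genes chosen by name: the kinases ATR, ATM, CHK1, CHK2 and WEE1 with their activators and mediators, and enzymes and scaffolds of homologous recombination, Fanconi anemia, base excision, mismatch and end joining repair. All 36 were found in a matrix of 54736 genes, and 28 of them reached 20 CPM, unique molecular identifiers (UMIs) per 1000000 of the culture, in at least 1 of 10 cultures. The cultures were of 63.3 cells, a mouse acute myeloid leukemia line grown with beta-estradiol at 0.5 µM and stem cell factor from conditioned medium. Brequinar, an inhibitor of the pyrimidine synthesis enzyme dihydroorotate dehydrogenase, was given at 2 µM for 6, 12, 24 or 48 h. For estradiol withdrawal, the cells were washed and kept for the same times in medium lacking estradiol, and whether that medium held stem cell factor is not said. Each series had its own 0 h culture, named only by its series and time, with no word on solvent. No culture kept untreated for 6 to 48 h was used here, so time in culture and treatment cannot be told apart. Single cells were sequenced after lipid-anchored barcodes had marked each culture and all had been pooled. Each condition was 1 culture, so no test was possible, and every difference below is between 2 cultures. Folds below are ratios of CPM, and the interval after a fold is the exact 95% interval for counting error.

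When a replication fork stalls, single-stranded DNA coated with RPA recruits ATR through ATRIP. TOPBP1 and ETAA1 switch ATR on, the RAD9-RAD1-HUS1 clamp and its loader RAD17 bring TOPBP1 to the fork, and claspin with the TIMELESS-TIPIN pair hands the signal to CHK1. CHK1 and WEE1 then hold back the cyclin-dependent kinases, so that forks are kept intact and mitosis waits. Many of these genes are transcribed at the start of or during S phase under E2F factors, so their mRNA follows the cell cycle as well as damage.

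Across the cultures 12540 cells entered the sums, from 528 at 48 h of brequinar to 1536 at 12 h of brequinar, with 5236694 to 19931921 UMIs a culture, so that 3 counts stand for 0.151 to 0.573 CPM. All 9 myeloid progenitor markers were at 20 CPM or more in both 0 h cultures, while no erythroid, megakaryocyte or lymphoid marker was, with summed levels of 4.19 CPM or less for 5 erythroid, 16.3 CPM or less for 4 megakaryocyte and 17.9 CPM or less for 6 lymphoid genes. At both 24 and 48 h of brequinar Pf4, Itga2b, Cd79a and Nkg7 of those lists passed 20 CPM, as did Nkg7 at 24 h of withdrawal. The summed lymphoid list stood at 84.2 CPM at 24 h and 62.1 CPM at 48 h of brequinar, against 15.95 CPM at 0 h, and at 28.00 CPM at 24 h of withdrawal, against 17.9 CPM at 0 h. The summed megakaryocyte list stood at 130.4 CPM at 48 h of brequinar, against 15.7 CPM at 0 h, with Gp1bb at 0 counts, and the part of these lists in the results was not tested. The 0 h cultures differed little for the genes described here: the 25 measured in that comparison stood at 0.955- to 1.14-fold in the brequinar 0 h culture against the withdrawal 0 h culture, and none passed 1.5-fold (background 0% higher, 0.0546% lower).

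A gene is called measured in a comparison when it had at least 20 CPM in either culture, and higher or lower, or said to have risen or fallen, when it was at least 1.5-fold apart. Members at 20 CPM in no culture were Hus1, Rad9a, Palb2, Fancd2, Wee1, Fanci, Fanca and Xrcc5. Palb2, which joins BRCA1 to BRCA2, came closest with 18.3 CPM at 24 h of brequinar. Then came Fancd2 (17.2 CPM at 24 h of brequinar) and the clamp subunit gene Hus1 (17.1 CPM at 6 h of brequinar). Just above the minimum were Atrip, at most 21.6 CPM, and the recombination helicase gene Rad54l, at most 29.3 CPM. The clamp subunit gene Rad9a stood between 7.64 and 14.4 CPM. Wee1, Fanci, Fanca and the Ku subunit gene Xrcc5 were far below the minimum, and no change was read from them. The highest value among them was 3.95 CPM, for Xrcc5 at 12 h of brequinar.

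With brequinar the recombination genes Brca1, Bard1, Brca2, Brip1 and Rad51ap1 and the fork adaptor gene Clspn rose, all 6 at both 12 and 24 h, while the uracil glycosylase gene Ung fell. The 27 members past 1.5-fold in any comparison with 0 h are given below in all 10 cultures. At 12 h 7 of the 27 measured members were higher (25.9%, against 13.5% of all genes measured) and 1 was lower (background 4.67%). Their median log2 ratio to 0 h was 0.40, beside 0.10 over all measured genes. At 24 h 10 of the 27 were higher (37.0%, background 29.2%) and 2 lower (background 13.8%), with a median of 0.15 beside 0.16. At 48 h 5 of the 27 were higher (background 25.7%) and 6 lower (background 17.3%), a median of -0.10 beside 0.04. The share at 12 h stood above that of all genes, and those at 24 and 48 h lay nearer to it. At 6 h none of the 26 measured was higher (background 8.82%) and 2 were lower (background 4.97%). Brca1 and Rad54l were measured at 12 and 24 h only through the treated culture, and Ung, Atr and Nbn at 24 h only through the 0 h culture, so part of these counts is set by the minimum. At 48 h this held for Brca1 among the 5 higher and for Rad1, Exo1 and Ung among the 6 lower. Among members of 50 CPM or more the medians were 0.64 at 24 h and 0.29 at 48 h, so the sign at 48 h turned with the minimum. With median-of-ratios scaling, which centres the typical gene, 6 members in place of 10 were higher at 24 h (background 20.8% under that scaling).

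**Figure D1:**
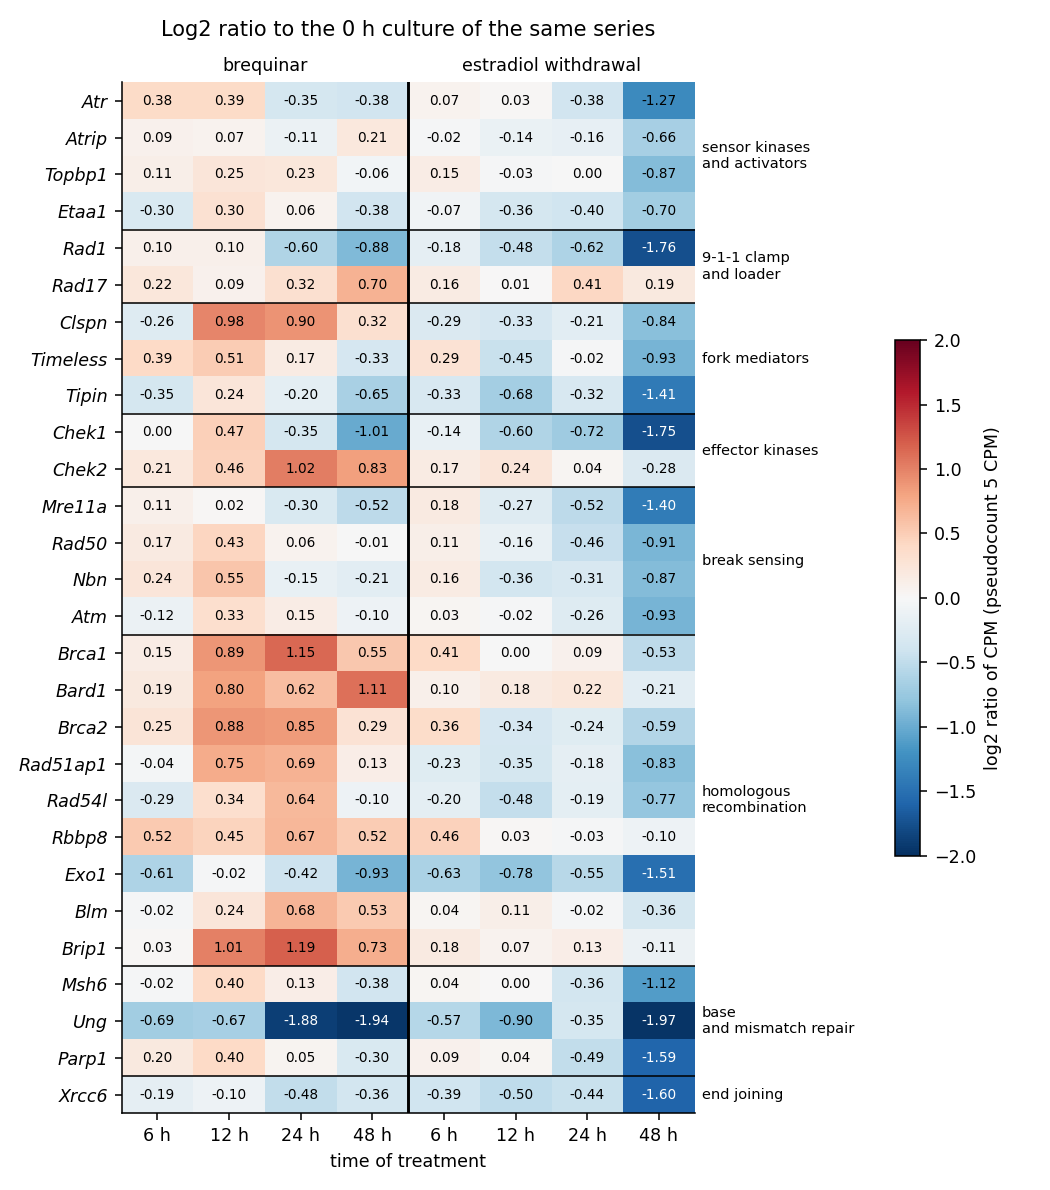
Log2 ratio of CPM (pseudocount 5 CPM) of the 28 measured members (rows, grouped by role) at 6, 12, 24 and 48 h of brequinar (left block) and of estradiol withdrawal (right block), each against the 0 h culture of its series. Red marks the recombination genes other than Exo1, and Clspn, at 12 and 24 h of brequinar, up to 1.19 for Brip1. Chek2 is red as well, at 1.02 at 24 h and 0.83 at 48 h of brequinar. Blue marks Ung in both blocks and most rows at 48 h of withdrawal.

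Because several members moved together, their promoter windows were read for motifs of cell cycle genes, from 250 bases before to 50 after the first start that RefSeq lists (build GRCm38.p6). Of the 36 members 28 had an entry. The E2F motif, searched as TTTCCCGC, TTTCGCGC, TTTGCCGC or TTTGGCGC on either strand, was present in 7 of these 28 windows (25.0%), in 6 of the 65 windows found for other repair genes (9.23%), and in 2.32% of the 27025 windows of all genes. Of the 10 windows of members higher at some time of brequinar 4 held it, of the 4 of members that were lower 0 did, and of the 9 of the measured others 3 did (Topbp1, Msh6 and Xrcc6). CCAAT, on either strand, was in 16 of the 28 (57.1%, against 37.9% of all windows), and the CHR motif TTTGAA in 2 of the 28 (7.14%, against 18.1%). No searched spelling contains another, and a match is of letters and not of a bound site. Other spellings were not searched, so a window without a match may still hold a related one. The window of Chek1, which was lower, ends in the letters GCGGGAA, most of a searched spelling read in reverse complement. The same letters stand in the window of Rad51ap1, which was higher.

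The 4 windows with an E2F match among the genes that were higher are shown 5′ to 3′ in the direction of the gene, with the match in capitals. The window of Ung, the gene that fell furthest and whose window held no match, follows them for comparison.
Clspn (chr4:126556730-126557029, plus strand): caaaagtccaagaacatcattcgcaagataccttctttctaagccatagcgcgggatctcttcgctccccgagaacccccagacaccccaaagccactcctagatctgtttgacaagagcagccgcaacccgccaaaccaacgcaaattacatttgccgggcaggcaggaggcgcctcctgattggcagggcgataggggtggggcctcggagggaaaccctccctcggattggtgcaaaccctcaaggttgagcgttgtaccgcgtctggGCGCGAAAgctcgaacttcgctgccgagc
Bard1 (chr1:71102923-71103222, minus strand): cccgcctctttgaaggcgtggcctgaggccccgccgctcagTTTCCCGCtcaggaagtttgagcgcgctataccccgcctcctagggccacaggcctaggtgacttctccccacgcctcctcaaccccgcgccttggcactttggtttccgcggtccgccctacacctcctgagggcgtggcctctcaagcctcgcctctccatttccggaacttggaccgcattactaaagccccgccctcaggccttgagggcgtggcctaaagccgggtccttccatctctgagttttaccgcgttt
Brca2 (chr5:150522371-150522670, plus strand): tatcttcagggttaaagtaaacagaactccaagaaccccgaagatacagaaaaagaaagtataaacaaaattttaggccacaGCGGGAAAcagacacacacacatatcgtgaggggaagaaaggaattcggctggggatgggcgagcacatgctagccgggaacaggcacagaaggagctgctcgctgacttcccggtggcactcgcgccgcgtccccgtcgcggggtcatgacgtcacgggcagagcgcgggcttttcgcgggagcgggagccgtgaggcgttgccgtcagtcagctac
Chek2 (chr5:110839733-110840032, plus strand): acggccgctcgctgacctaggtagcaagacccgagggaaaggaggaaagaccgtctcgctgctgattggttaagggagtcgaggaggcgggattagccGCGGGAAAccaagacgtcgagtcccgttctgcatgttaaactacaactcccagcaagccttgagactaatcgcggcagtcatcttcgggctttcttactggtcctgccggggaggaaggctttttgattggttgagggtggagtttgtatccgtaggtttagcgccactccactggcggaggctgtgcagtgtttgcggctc
Ung (chr5:114130185-114130484, plus strand): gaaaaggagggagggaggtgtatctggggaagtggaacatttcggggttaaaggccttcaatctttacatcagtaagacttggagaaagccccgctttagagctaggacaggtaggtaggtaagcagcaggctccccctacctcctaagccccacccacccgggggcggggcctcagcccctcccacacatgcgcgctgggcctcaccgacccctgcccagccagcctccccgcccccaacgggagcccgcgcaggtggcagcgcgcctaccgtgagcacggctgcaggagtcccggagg

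The match began 21 bases after the start in Clspn, and 209, 168 and 152 bases before it in Bard1, Brca2 and Chek2. In Bard1 the letters stand in the forward direction, in the other 3 as the reverse complement. The windows of Brca1, Brip1 and Rad51ap1, which rose as well, held none of the 4 spellings.

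No gene at the head of the pathway, ATR and its activators, passed 1.5-fold with brequinar, and Atr, Topbp1 and Etaa1 all fell at 48 h of withdrawal. Atr, which encodes the kinase itself, stood at 24.1, 32.9, 33.1, 17.8 and 17.4 CPM at 0, 6, 12, 24 and 48 h of brequinar, and at 24.4, 25.9, 24.97, 17.6 and 7.14 CPM over the same times of withdrawal. It was thus 1.37-fold of 0 h at 12 h of brequinar, short of 1.5-fold, and 3.41-fold (interval 2.54 to 4.68) lower at 48 h of withdrawal. Topbp1, the activator carried by the clamp, stood at 120.4, 131, 144, 142 and 116 CPM over the brequinar times and at 119.6, 133, 117, 119 and 63.4 CPM over those of withdrawal. Its brequinar cultures all lay within 1.5-fold of 0 h, and its 48 h withdrawal culture was 1.89-fold lower. Etaa1, the clamp-independent activator, stood at 35.4, 27.8, 44.9, 37.2 and 25.97 CPM with brequinar and 31.9, 30.2, 23.8, 22.9 and 17.8 CPM with withdrawal, where it was 1.79-fold lower at 48 h. Atrip, whose product tethers ATR to RPA-coated DNA, was measured against 0 h only at 48 h of brequinar, at 21.6 against 18.01 CPM, and is the 1 measured member past 1.5-fold in no comparison with 0 h. Atrip overlaps Trex1 on the same strand in the GENCODE annotation, so reads of these genes may be mixed.

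The clamp gene Rad1 fell late in both series, while the loader gene Rad17 rose at 48 h of brequinar. Rad1, the clamp subunit that was measured, stood at 39.5, 42.7, 42.7, 24.3 and 19.1 CPM at 0, 6, 12, 24 and 48 h of brequinar and at 38.2, 33.1, 25.9, 23.1 and 7.72 CPM at those times of withdrawal. It was lower by 2.07-fold (interval 1.68 to 2.57) at 48 h of brequinar, and the withdrawal culture of that time stood 4.94-fold (interval 3.74 to 6.66) lower. Rad17, which loads the clamp at DNA junctions, stood at 34.8, 41.5, 37.3, 44.8 and 59.6 CPM with brequinar and at 35.2, 40.04, 35.6, 48.5 and 40.8 CPM with withdrawal. It was highest at 48 h of brequinar, 1.71-fold (interval 1.49 to 1.96) of 0 h, and no withdrawal culture passed 1.5-fold.

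Of the fork mediators only Clspn passed 1.5-fold upward with brequinar. It encodes claspin, the adaptor that presents CHK1 to ATR and also sets fork speed, and stood at 63.7, 52.5, 130.2, 123 and 80.97 CPM at 0, 6, 12, 24 and 48 h of brequinar, against 66.7, 53.6, 51.9, 57.04 and 34.97 CPM over the times of withdrawal. With brequinar it was 2.04-fold (interval 1.90 to 2.19) of 0 h at 12 h and 1.93-fold (interval 1.80 to 2.07) at 24 h, while 6 h of either treatment left it slightly below 0 h. Timeless, of the fork protection pair, stood at 34.3, 46.6, 51.01, 39.1 and 26.2 CPM with brequinar and 32.05, 40.3, 22.1, 31.4 and 14.4 CPM with withdrawal. Tipin, its partner, stood at 406, 317, 480.3, 353 and 256 CPM with brequinar and 405, 322, 251, 323 and 149.6 CPM with withdrawal. Both were highest at 12 h of brequinar and lowest at 48 h of withdrawal. Timeless was 2.22-fold lower at 48 h of withdrawal, and Tipin was 1.59-fold lower at 48 h of brequinar and 2.71-fold lower at 48 h of withdrawal.

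Of the effector kinase genes, Chek2 rose with brequinar at 24 and 48 h, and Chek1 fell at 48 h. Chek1, the kinase of stalled forks, stood at 49.3, 49.2, 70.3, 37.5 and 21.96 CPM at 0, 6, 12, 24 and 48 h of brequinar and at 46.8, 41.9, 29.2, 26.5 and 10.3 CPM over those of withdrawal. After a level 1.43-fold (interval 1.31 to 1.55) of 0 h at 12 h, short of 1.5-fold, it was 2.25-fold (interval 1.85 to 2.75) lower at 48 h of brequinar. Chek2, the kinase downstream of ATM at broken DNA, stood at 38.3, 45.1, 54.7, 82.7 and 71.8 CPM with brequinar and at 36.5, 41.7, 43.9, 37.5 and 29.1 CPM with withdrawal. It was 2.16-fold (interval 1.98 to 2.36) of 0 h at 24 h of brequinar and 1.88-fold (interval 1.65 to 2.13) at 48 h, and within 1.5-fold of 0 h at every time of withdrawal. At 48 h of withdrawal Chek1 was 4.52-fold (interval 3.55 to 5.84) lower, the culture in which it was lowest.

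Genes of the MRE11-RAD50-NBS1 complex, which binds DNA ends and activates ATM, and Atm itself were lower at 48 h of withdrawal, and with brequinar only Nbn at 12 h and Mre11a at 48 h passed 1.5-fold. Nbn, the NBS1 gene, stood at 22.5, 27.4, 35.2, 19.8 and 18.7 CPM with brequinar, 1.56-fold of 0 h at 12 h, and at 21.7, 24.9, 15.8, 16.5 and 9.62 CPM with withdrawal. Rad50, the ATPase of the complex, stood at 164, 185, 223, 171 and 163 CPM with brequinar and 156, 169, 139.9, 112 and 81.01 CPM with withdrawal. Mre11a, the nuclease, stood at 46.1, 49.98, 46.7, 36.5 and 30.6 CPM with brequinar and 43.4, 49.8, 35.3, 28.8 and 13.4 CPM with withdrawal, so that it was 1.51-fold (interval 1.27 to 1.80) lower at 48 h of brequinar and already 1.51-fold lower at 24 h of withdrawal. Atm, the kinase of broken DNA, stood at 23.5, 21.3, 30.96, 26.8 and 21.6 CPM with brequinar and 20.9, 21.5, 20.5, 16.6 and 8.60 CPM with withdrawal. At 48 h of withdrawal Rad50 was 1.93-fold, Nbn 2.26-fold, Atm 2.43-fold and Mre11a 3.24-fold lower.

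Of the 28 measured members 12 were higher at some time of brequinar (42.9%, against 39.4% of all genes measured at any of those times). Of these 12, 8 were among the 9 measured members of homologous recombination (88.9% of the 9). Among the 8, Brca1 and Rad54l stood below 20 CPM at 0 h and were measured only through treated cultures, so their part of this count is set by the minimum. Brca1, the ubiquitin ligase and scaffold of end resection, stood at 17.7, 20.1, 36.9, 45.4 and 28.1 CPM at 0, 6, 12, 24 and 48 h of brequinar, against 16.3, 23.2, 16.2, 17.6 and 9.76 CPM over the times of withdrawal. It was 2.57-fold (interval 2.26 to 2.92) of 0 h at 24 h of brequinar. Bard1, its obligate partner, stood at 46.5, 53.8, 84.5, 73.9 and 106 CPM with brequinar and 45.1, 48.9, 51.96, 53.5 and 38.3 CPM with withdrawal, and was highest at 48 h of brequinar, 2.28-fold (interval 2.05 to 2.54) of 0 h. The 2 partners therefore had their highest brequinar cultures at different times, Brca1 at 24 h and Bard1 at 48 h.

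Brip1, the helicase that binds BRCA1, stood at 22.7, 23.2, 50.6, 58.2 and 40.9 CPM with brequinar and at 19.97, 23.2, 21.3, 22.2 and 18.1 CPM with withdrawal. Its rise of 2.56-fold (interval 2.29 to 2.87) at 24 h was, with that of Brca1, the largest of any measured member at that time. Brca2, a mediator of strand exchange, stood at 48.8, 59.1, 94.00, 91.6 and 60.9 CPM with brequinar and 48.96, 64.4, 37.6, 40.6 and 30.9 CPM with withdrawal. Rad51ap1, an accessory factor of strand invasion, stood at 84.4, 81.99, 145, 139 and 93.00 CPM with brequinar and 84.98, 71.5, 65.8, 74.5 and 45.6 CPM with withdrawal. Brca2 and Rad51ap1 were 1.93- and 1.72-fold of 0 h at 12 h of brequinar and lay within 1.5-fold of it at 48 h.

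Blm, the helicase that dissolves recombination intermediates, stood at 40.9, 40.2, 49.1, 68.5 and 61.1 CPM with brequinar and 36.7, 37.8, 40.2, 36.04 and 27.5 CPM with withdrawal, and at 24 h of brequinar it was 1.68-fold (interval 1.53 to 1.83) of 0 h. Rbbp8, which encodes the resection factor CtIP, stood at 51.7, 76.3, 72.3, 85.1 and 76.00 CPM with brequinar and 50.7, 71.5, 51.7, 49.7 and 47.1 CPM with withdrawal. At 6 h it was 1.48-fold of 0 h with brequinar and 1.41-fold with withdrawal, both just short of 1.5-fold, and at 24 h of brequinar it was 1.65-fold. Rad54l, a motor protein of strand exchange, stood at 17.01, 12.95, 22.8, 29.3 and 15.5 CPM with brequinar and 19.1, 15.97, 12.3, 16.1 and 9.18 CPM with withdrawal, 1.72-fold of 0 h at 24 h of brequinar. Exo1, the long-range resection nuclease, went the other way from its group: it stood at 36.9, 22.5, 36.5, 26.3 and 17.00 CPM with brequinar and 33.4, 19.9, 17.3, 21.1 and 8.45 CPM with withdrawal. It was 1.64-fold lower at 6 h of brequinar, back at 0.988-fold of 0 h at 12 h, and 2.17-fold (interval 1.74 to 2.74) lower at 48 h. With withdrawal it stayed below 0 h at every time, by 3.95-fold at 48 h.

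Among base and mismatch repair and end joining genes, Ung fell further with brequinar than any other measured member. It encodes the glycosylase that cuts uracil out of DNA, and stood at 76.6, 45.6, 46.3, 17.2 and 16.2 CPM at 0, 6, 12, 24 and 48 h of brequinar, against 72.04, 46.9, 36.3, 55.3 and 14.7 CPM over the times of withdrawal. It was 1.68-fold lower at 6 h and 4.46-fold (interval 3.93 to 5.07) lower at 24 h of brequinar. At 24 h of withdrawal it was back to 0.767-fold of 0 h before it fell to 0.204-fold at 48 h. Msh6, the mismatch sensor subunit, stood at 49.8, 48.99, 67.6, 55.1 and 37.2 CPM with brequinar and 46.8, 48.4, 46.9, 35.2 and 18.8 CPM with withdrawal. Parp1, the poly(ADP-ribose) polymerase of strand breaks, stood at 109, 125, 145, 113 and 87.1 CPM with brequinar and 112, 119, 115, 77.97 and 33.8 CPM with withdrawal. Xrcc6, the Ku subunit that was measured, stood at 41.9, 36.3, 38.7, 28.5 and 31.5 CPM with brequinar and 43.4, 31.8, 29.1, 30.5 and 10.9 CPM with withdrawal. These 3 stayed within 1.5-fold of 0 h at every time of brequinar and were 2.49-, 3.30- and 3.97-fold lower at 48 h of withdrawal.

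**Figure D2:**
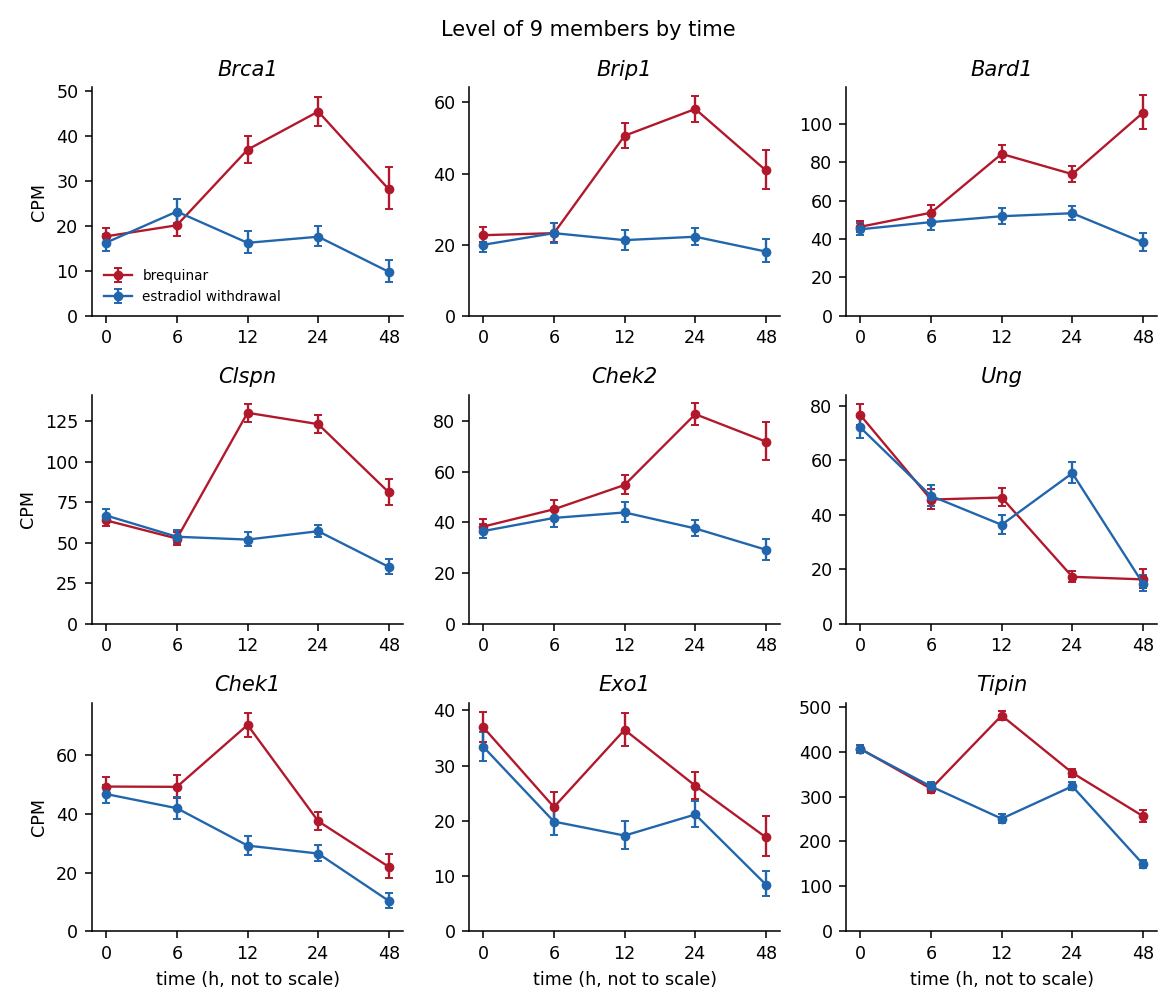
CPM of 9 members (vertical axes, each from 0) at 0, 6, 12, 24 and 48 h of brequinar (red) and of estradiol withdrawal (blue), with exact 95% Poisson intervals for counting error; each point is 1 culture. Brca1, Brip1, Bard1, Clspn and Chek2 part between the series from 12 or 24 h on, while Ung stands at 16.2 CPM at 48 h of brequinar and 14.7 CPM at 48 h of withdrawal.

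With estradiol withdrawal members passed 1.5-fold downward only, and most did so at 48 h. No member was higher at any time, against 12.3, 13.4, 9.46 and 21.5% of all measured genes at 6, 12, 24 and 48 h. Under the alternatives for processing at most 2 were higher at 6 and 48 h and at most 1 at 12 and 24 h. Lower were 2 of the 26 measured at 6 h (background 8.11%), 4 of the 25 at 12 h (background 11.2%) and 4 of the 25 at 24 h (background 11.9%). At 48 h 19 of the 24 were lower (79.2%, background 40.7%), with a median log2 ratio of -0.92 beside -0.33 over all measured genes. S phase genes that include no member, 31 of them measured, stood as low, 28 lower (90.3%) with a median of -0.98, and of 49 G2/M genes 15 were lower (30.6%) with a median of -0.38. The 5 members that were not lower were Bard1, Blm, Chek2, Rad17 and Rbbp8. Of the 19, 12 were measured only through the 0 h culture and so had to stand lower at 48 h.

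At 48 h of withdrawal 9 genes of maturing neutrophils summed to 59418 CPM, against 389.6 CPM at 0 h, all 9 at 20 CPM or more at 48 h, and their part in the lower levels was not tested. At 48 h of brequinar they summed to 1994 CPM, against 330.3 CPM at 0 h. Scaling by the median ratio over genes moved the median of all genes at 48 h of withdrawal to 0.03 and that of the members to -0.63. Counted per cell, the 36 members together gave 16.5 UMIs at 48 h of brequinar and 22.7 at 24 h, against 24.2 at 0 h of that series. The same sum was 6.03 UMIs per cell at 48 h of withdrawal, against 24.5 at its 0 h. Over all genes the median cell held 9782 UMIs at 48 h of brequinar, against 14849 at 0 h, and 6509 at 48 h of withdrawal, against 15229 at 0 h.

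Set side by side at matched times, the treatments differed from 12 h on. At 6 h none of the 26 measured members was 1.5-fold apart (background 1.9% higher and 1.45% lower with brequinar). At 12 h 16 of the 27 were higher with brequinar than with withdrawal (59.3%, background 13.2%) and 0 lower (background 7.33%). At 24 h 13 of the 25 were higher (52.0%, background 29.6%) and Ung alone was lower (background 8.05%), at 17.2 CPM with brequinar against 55.3 CPM with withdrawal, 3.22-fold (interval 2.81 to 3.69). At 48 h 20 of the 22 were higher (90.9%, background 37.6%) and 0 lower (background 8.57%). Measured through the brequinar culture alone were 4 of those higher at 12 h, 3 at 24 h and 9 at 48 h. At 48 h, with median-of-ratios scaling 13 were higher (background 15.9%), and with cells weighted to the class shares of the withdrawal culture 10 of the 18 then measured were (background 31.2%). Median log2 ratios were 0.65, 0.56 and 0.95 at 12, 24 and 48 h, beside 0.09, 0.23 and 0.34 over all measured genes.

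The genes furthest apart differed between times. At 12 h these were Clspn, at 130.2 CPM with brequinar against 51.9 CPM with withdrawal or 2.51-fold (interval 2.29 to 2.76), and Brca2, at 94.00 CPM with brequinar against 37.6 CPM with withdrawal, or 2.50-fold (interval 2.24 to 2.80). Chek1 came next, at 70.3 CPM with brequinar against 29.2 CPM with withdrawal, 2.41-fold (interval 2.12 to 2.74). At 48 h the largest ratios of CPM were those of Xrcc6, 2.88-fold (interval 2.18 to 3.84), and Brca1, 2.88-fold (interval 2.14 to 3.90), both at 20 CPM or more in the brequinar culture alone. On the log2 scale with its pseudocount of 5 CPM the largest was that of Bard1, 1.36, then Parp1 at 1.25, both above that of Xrcc6. For Xrcc6 both cultures stood below 0 h, at 31.5 CPM with brequinar and 10.9 CPM with withdrawal, while Brca1 stood above 0 h with brequinar and below it with withdrawal.

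**Figure D3:**
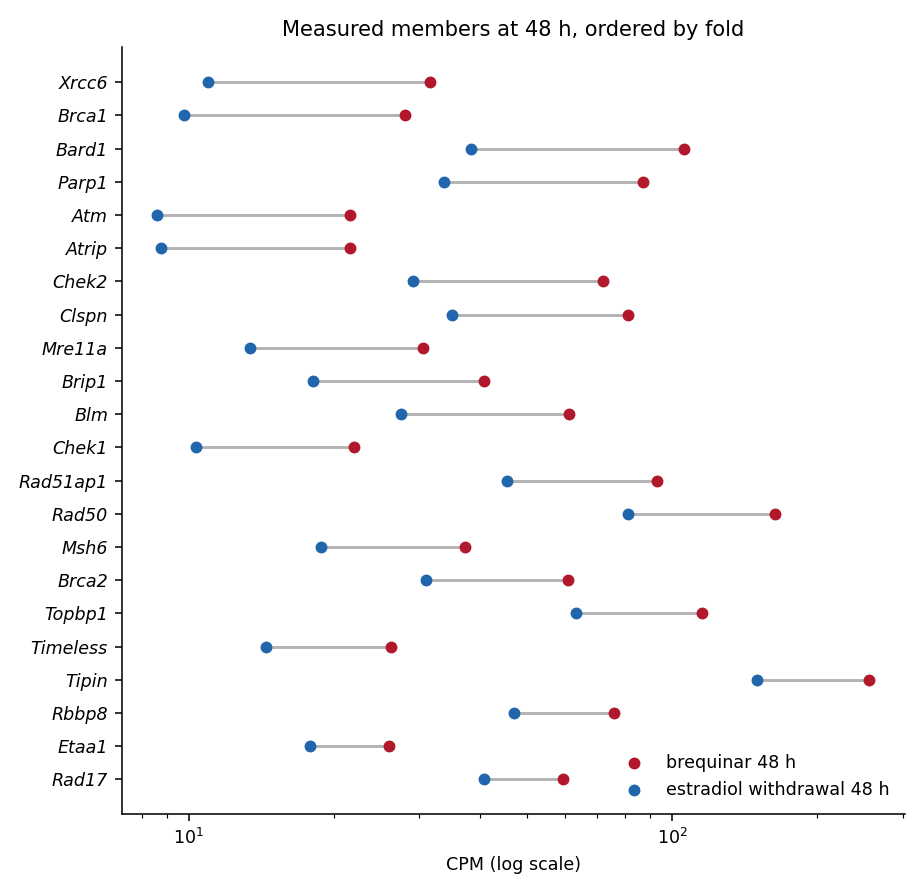
CPM (log axis) of the 22 members measured at 48 h, with the brequinar culture in red and the estradiol withdrawal culture in blue, ordered by the ratio between them. Every red point lies right of its blue point, from 1.46-fold for Rad17 to 2.88-fold for Xrcc6.

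Cells were also put into cell cycle classes, by scores over S phase and G2/M genes that include no member, in cells thinned to 2500 UMIs. A class is a range of a score and not a cell type, and 23.3 to 44.2% of the cells of a culture lay within 0.05 of a cut. The S class held 45.02% (42.3 to 47.7%) of cells at 12 h, 13.05% (11.3 to 14.9%) at 24 h and 6.02% (4.13 to 8.44%) at 48 h of brequinar, against 41.3% (38.6 to 44.1%) at 0 h. The G2/M class held 83.5% (81.5 to 85.4%) at 24 h of brequinar, against 52.5% (49.7 to 55.2%) at 0 h. With withdrawal the G1-like class, where neither score was above 0, held 61.9% (58.7 to 65.1%) of cells at 48 h, against 6.05% (4.76 to 7.57%) at 0 h. Depth differed between classes too, the G2/M class having the most UMIs per cell in every culture. Brackets give exact binomial intervals for counting error. The G1-like classes of the 0 h cultures had 81 and 71 cells, too few to set single genes against.

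At 0 h the members leaned to the S class over the G2/M class. In the brequinar 0 h culture 10 of the 28 measured were higher in the S than in the G2/M class (background 1.68%) and 0 lower (background 2.24%). In the withdrawal 0 h culture 7 of the 27 were higher (background 1.43%) and 0 lower (background 2.36%). Ung was the extreme, at 142 CPM in the S class against 24.8 CPM in the G2/M class of the brequinar 0 h culture, and at 146 CPM in the S class against 19.6 CPM in the G2/M class of the withdrawal 0 h culture. Chek2 had the lowest ratio in both cultures, 0.744-fold, interval 0.636 to 0.869 in the brequinar one and 0.799-fold, interval 0.676 to 0.942 in the withdrawal one. Clspn was higher in the S class of the brequinar 0 h culture (2.05-fold, interval 1.83 to 2.31), as was Brca1 (2.33-fold, interval 1.86 to 2.93).

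Brca1, Brip1 and Clspn were higher with brequinar inside the S and G2/M classes too. In the S class at 12 h 7 of the 28 measured members were higher (background 13.8%) and 1 lower (background 4.92%). In the G2/M class 10 of the 27 were higher (background 15.3%) and 1 lower (background 5.61%). Brca1 stood at 44.9 CPM in the S class at 12 h, against 27.2 CPM at 0 h (1.65-fold, interval 1.38 to 1.98). In the G2/M class it stood at 45.2 CPM at 24 h, against 11.7 CPM at 0 h (3.88-fold, interval 3.20 to 4.73). Clspn in the G2/M class stood at 121 CPM at 24 h, against 45.6 CPM at 0 h (2.65-fold, interval 2.39 to 2.93), a level above the 93.6 CPM of the S class at 0 h. In the same class Brip1 at 24 h was higher than at 0 h (3.14-fold, interval 2.69 to 3.68), and so was Bard1 at 48 h (3.20-fold, interval 2.81 to 3.64).

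Ung was lower at 24 h of brequinar inside both classes as well, at 75.3 CPM in the S class at 24 h against 142 CPM at 0 h, and at 7.40 CPM in the G2/M class at 24 h against 24.8 CPM at 0 h. Chek1 in the S class stood at 75.3 CPM at 24 h, against 67.5 CPM at 0 h, where the whole culture was below 0 h. In the G2/M class Chek1 stood at 22.7 CPM at 48 h, against 36.7 CPM at 0 h. The S class at 48 h of brequinar had 31 cells, so its levels carry wide intervals, and Ung there was at 133 CPM, near its level in the S class at 0 h.

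In both series the G1-like class had the most members lower at 48 h. With brequinar 16 of the 22 measured members were lower in that class and 2 higher, with 107 cells at 48 h and 81 at 0 h. In the S class of brequinar 2 of the 28 were lower and 8 higher, and in its G2/M class 3 of the 27 were lower and 9 higher. The shares over all genes were not taken for the brequinar classes at 48 h. Whether these brequinar counts differ from those of all genes is therefore not known. With withdrawal the classes differed too, and the G1-like class again had the most members lower. In that class, which held most cells at 48 h but only 71 at 0 h, 22 of the 25 measured members were lower (background 46.2%) and 1 higher (background 24.6%), with a median log2 ratio of -1.56. Members measured only through the 0 h class had to stand lower at 48 h, and their number is not given here. In the S class 5 of the 27 measured members were lower (background 32.7%) and 3 higher (background 18.9%), with a median log2 ratio of -0.09. In the G2/M class 11 of the 23 were lower (background 34.2%) and 1 higher (background 18.8%), and the median was -0.54. With cells weighted to the class shares of the 0 h culture the median over the culture was -0.46, in place of -0.92, and 11 members in place of 19 were lower (background 32.7% under that weighting). Clspn, Brca2 and Rad51ap1 turned from lower to log2 ratios of 0.12, 0.13 and 0.045. Under the same weighting the median at 12 h of brequinar was 0.38, in place of 0.40, and that at 12 h of withdrawal was 0.053, in place of -0.27.

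**Figure D4:**
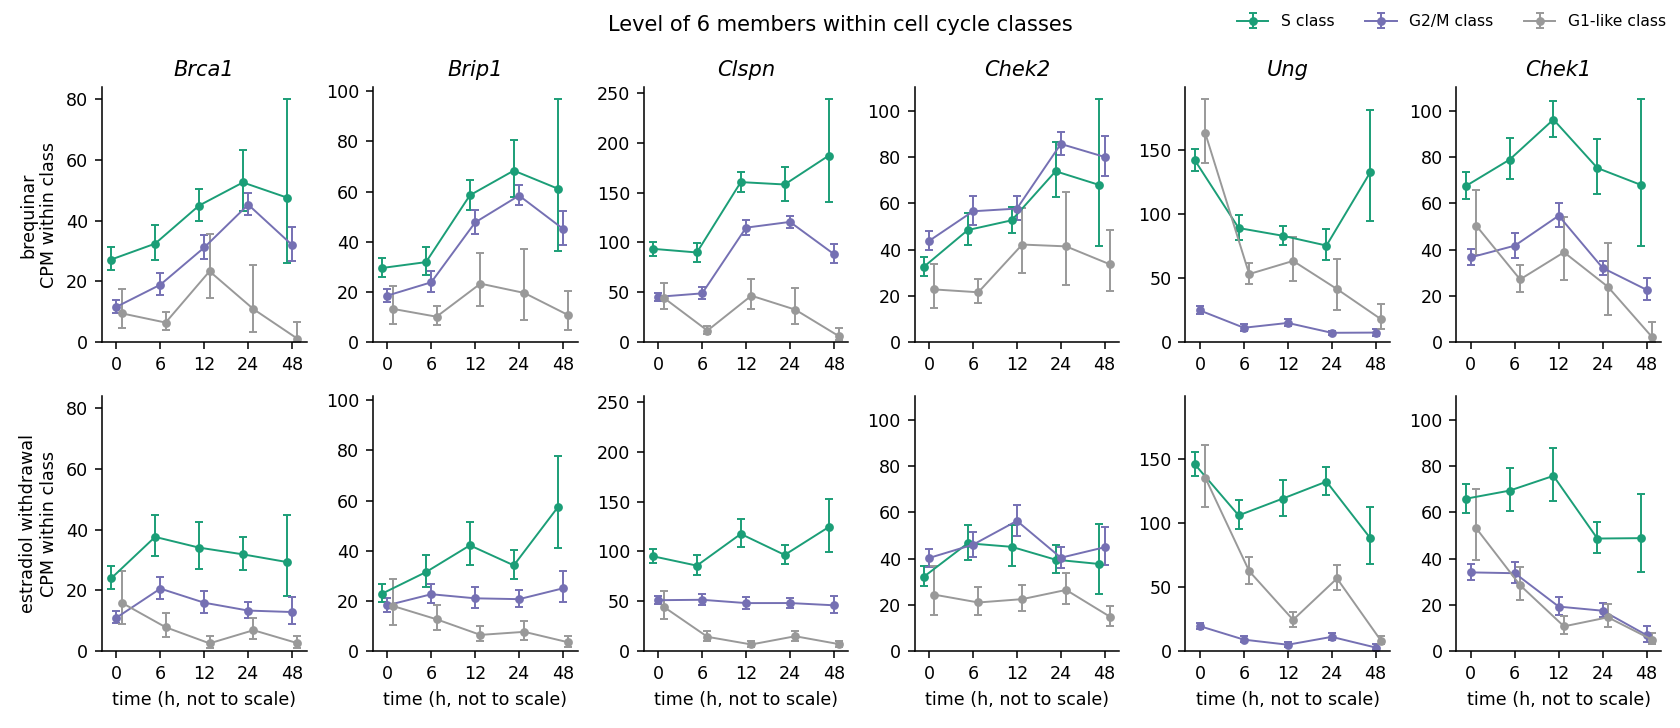
CPM of 6 members within the S (green), G2/M (violet) and G1-like (grey) classes at 0, 6, 12, 24 and 48 h of brequinar (upper row) and estradiol withdrawal (lower row), with exact 95% Poisson intervals for counting error. Brca1, Brip1 and Clspn stand above 0 h in both the S and G2/M classes at 12, 24 and 48 h of brequinar, while Ung in the G2/M class stays at 24.8 CPM or below.

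A wider list of 86 other repair genes was looked at the same way. At 12 h of brequinar 9 of 39 such genes passed 1.5-fold upward (23.1%, background 13.5%) and 2 downward (background 4.67%), their median log2 ratio being 0.34. At 48 h 10 of 36 passed it upward (27.8%, near the background of 25.7%) and 5 downward (background 17.3%), with a median of -0.04. Highest at 12 h were the glycosylase gene Neil3 (70.4 CPM at 12 h against 32.9 CPM at 0 h, 2.14-fold, interval 1.94 to 2.36), the mismatch gene Msh3 (34.5 CPM at 12 h against 16.5 CPM at 0 h, 2.09-fold, interval 1.82 to 2.40) and the Werner helicase gene Wrn (52.3 CPM at 12 h against 25.5 CPM at 0 h, 2.05-fold, interval 1.83 to 2.29). Lowest were H2afx, the histone variant marked at DNA breaks (63.7 CPM at 12 h against 245 CPM at 0 h, lower by 3.85-fold, interval 3.60 to 4.13), the phosphatase gene Cdc25c (13.6 CPM at 12 h against 20.6 CPM at 0 h, lower by 1.51-fold, interval 1.28 to 1.79) and the mitotic kinase gene Plk1 (51.3 CPM at 12 h against 74.2 CPM at 0 h, lower by 1.45-fold, interval 1.33 to 1.58), which did not pass 1.5-fold.

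At 48 h of brequinar the highest were Cdc25b, a phosphatase that activates CDK1 (46.6 CPM at 48 h against 12.1 CPM at 0 h, 3.84-fold, interval 3.20 to 4.60), Wrn (76.6 CPM at 48 h against 25.5 CPM at 0 h, 3.0-fold, interval 2.63 to 3.43) and Xpc, the damage sensor of nucleotide excision repair (464 CPM at 48 h against 191 CPM at 0 h, 2.42-fold, interval 2.30 to 2.55). The lowest were the replicative ligase gene Lig1 (63.2 CPM at 48 h against 164 CPM at 0 h, lower by 2.59-fold, interval 2.32 to 2.91), Rpa1, the large RPA subunit (29.6 CPM at 48 h against 47.8 CPM at 0 h, lower by 1.62-fold, interval 1.36 to 1.93), and Mms22l (36.3 CPM at 48 h against 57.6 CPM at 0 h, lower by 1.59-fold, interval 1.36 to 1.86), whose product works with TONSL at stalled forks. With withdrawal 2 of 31 passed 1.5-fold upward (background 13.4%) and 3 downward (background 11.2%) at 12 h, with a median of -0.21. At 48 h it was 2 of 32 upward (background 21.5%) and 16 downward (50.0%, background 40.7%), with a median of -0.50. Highest at 12 h of withdrawal were Wrn (45.5 CPM at 12 h against 25.4 CPM at 0 h, 1.79-fold, interval 1.58 to 2.04), Hltf (43.6 CPM at 12 h against 27.2 CPM at 0 h, 1.60-fold, interval 1.41 to 1.82), a fork remodeler, and Neil3 (46.1 CPM at 12 h against 32.7 CPM at 0 h, 1.41-fold, interval 1.25 to 1.59), which did not pass 1.5-fold. Among the 3 lowest were the RPA subunit genes Rpa2 (78.6 CPM at 12 h against 137 CPM at 0 h, lower by 1.75-fold, interval 1.62 to 1.89) and Rpa1 (29.3 CPM at 12 h against 46.9 CPM at 0 h, lower by 1.60-fold, interval 1.41 to 1.83). At 48 h of withdrawal Wrn (46.9 CPM at 48 h against 25.4 CPM at 0 h, 1.85-fold, interval 1.60 to 2.13) and Xpa (46.04 CPM at 48 h against 30.5 CPM at 0 h, 1.51-fold, interval 1.31 to 1.73) were higher, and Cdc25b followed (20.1 CPM at 48 h against 14.1 CPM at 0 h, 1.43-fold, interval 1.15 to 1.76), short of 1.5-fold. Among the 3 lowest were Rif1 (34.7 CPM at 48 h against 115 CPM at 0 h, lower by 3.32-fold, interval 2.90 to 3.81) and Rpa2 (42.3 CPM at 48 h against 137 CPM at 0 h, lower by 3.25-fold, interval 2.88 to 3.68). Wrn was the only one of the other repair genes among the 3 highest at 12 and 48 h of both treatments.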

How the data were processed

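Single-cell 3′ RNA-seq of 1 pool of 10 barcoded cultures was run as 2 samples, and the matrix holds both runs with barcodes that carry no mark of the run, so the runs could not be compared. The authors deposited whole-number UMI counts of spliced transcripts per gene and barcode, with a demultiplexing list. Cell Ranger, bustools 0.39.4 and kallisto 0.46 stand, without roles, in the submitters' processing notes. The genome build behind the counts, and the gene models, were not given in the sources used here. Of 54838 gene IDs 54723 matched a symbol in the names table, and the count per symbol was summed. Of 15582 listed barcodes, 2777 that the list calls doublets and 265 negatives were left out, and no doublet caller was run. The 26 barcodes listed more than once were negatives. No column of per-sample values was left unused.

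UMIs were summed per culture and divided by the culture's total (CPM). A gene was measured at 20 CPM in either culture compared, higher or lower past 1.5-fold, and log2 ratios used a pseudocount of 5 CPM. Intervals are exact Clopper-Pearson and Poisson 95% intervals (SciPy 1.17.1), which cover counting error only, as UMIs of 1 culture are no replicates. Cell cycle classes came from scanpy 1.11.5 scores over 32 S phase and 51 G2/M genes in cells thinned to 2500 UMIs. Between 13 and 249 shallower cells a culture were left out of the classes only. The steps were tested on simulated data for 12 h of brequinar against 0 h, where all 50 genes of each fold were called and the 95% interval held the true fold for 88.0% of those set at 2-fold and 94.0 to 96.0% of those at the other folds. These counts carried counting error only, at folds of 2 and 3 and their inverses. The simulation therefore cannot speak to calls near 1.5-fold, to spread between cultures or to the shallower cultures. Members and lists were chosen with earlier results of these data known. The 27 members past 1.5-fold against 0 h are given in all cultures, and of the other repair genes the 3 highest and 3 lowest log2 ratios at 12 and 48 h, of which some are not reported here. Alternatives were another scaling, cell filter, weighting, free RNA removal, minimum, pseudocount and fold, and weighting to the class shares of the culture compared with.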

Additional observations from a re-analysis of the deposited data

How the results depend on the processing

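No paired analysis was possible because each condition is 1 culture and no test was run. Of the 12 medians of the members' log2 ratios, those listed below moved by more than a set limit. The others did not under any alternative tried. The limit was the half-width, on the log2 scale, of the counting interval of the member or members at the middle rank. It is an error of single genes and not of the median. With median-of-ratios scaling the medians that moved were 0.27 at 12 h of brequinar, -0.63 at 48 h of withdrawal and 0.59 for brequinar against withdrawal at 48 h. With no minimum they were 0.30 at 12 h of brequinar and 0.49 for brequinar against withdrawal at 12 h. At a minimum of 50 CPM, which drops members of lower level, they were 0.64 at 24 h and 0.29 at 48 h of brequinar. With cells weighted to the class shares of the culture compared with, the median at 12 h of withdrawal turned to 0.053 (in place of -0.27), that at 48 h of withdrawal was -0.46, and those for brequinar against withdrawal were 0.49 at 12 h and 0.53 at 48 h. The same weighting turned the log2 ratios of Clspn, Brca2 and Rad51ap1 at 48 h of withdrawal to 0.12, 0.13 and 0.045. The cause was not tested. Shifts within that half-width could still be large. With median-of-ratios scaling they included 0.15 to 0.005 at 24 h of brequinar and 0.56 to 0.34 for brequinar against withdrawal at 24 h. With the class weighting the median at 48 h of brequinar went from -0.10 to 0.048.

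Scaling by the median ratio shifted the median of all genes from 0.10 to -0.03 at 12 h of brequinar, from 0.16 to -0.03 at 24 h of brequinar and from 0.34 to -0.08 for brequinar against withdrawal at 48 h. Over all alternatives the number of members called higher ranged from 3 to 8 at 12 h, from 3 to 13 at 24 h and from 1 to 10 at 48 h of brequinar, and the number called lower from 7 to 26 at 48 h of withdrawal. Lower were also 0 to 3 at 6 h, 0 to 1 at 12 h, 1 to 5 at 24 h and 2 to 9 at 48 h of brequinar, and 0 to 2 at 6 h and 0 to 6 at 12 and 24 h of withdrawal. Higher were 0 to 2 at 6 h of brequinar, and with withdrawal 0 to 2 at 6 and 48 h and 0 to 1 at 12 and 24 h. For brequinar against withdrawal 9 to 19 were higher at 12 h, 5 to 17 at 24 h and 10 to 28 at 48 h. The lowest of the counts of higher members at 12 and 24 h of brequinar came from counting 2-fold. Depth limits the 8 members below 20 CPM, and the 31 cells of the S class at 48 h of brequinar.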
